A study of Mus musculus with 18 samples.

Results

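Normal growth of the mouse heart between postnatal day 8 (P8) and day 30 (P30) was followed in mice kept in normoxia. These are 8 of the 18 samples of the series, chosen by their labels: 4 samples labelled normoxia and P30 (numbers 2, 3, 4 and 5) and 4 labelled normoxia and P8 (numbers 13, 22, 23 and 24). The other 10 samples are hearts of mice in hypoxia at 11% oxygen, 5 at P30 and 5 at P8, and the question of the series is how low oxygen around birth bears on cardiac maturation, as in cyanotic congenital heart disease. The tissue of every sample is labelled heart. Strain, sex, any genetic change and any pooling of animals are not stated in the labels used here, nor do they say that samples came from separate animals, so the p-values reflect only spread among these samples, which may be technical.

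After birth, heart muscle cells of the mouse largely stop dividing and go on growing in size, exchange fetal isoforms of contractile proteins for adult ones, and come to draw most of their energy from fatty acids. The slow skeletal troponin I of the fetal heart, for example, is replaced by the cardiac form. Connective tissue is laid down quickly in the newborn heart, and resident macrophages and vessels grow with it.

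Signals come from Clariom S arrays, which read each transcript cluster with 1 set of probes, here simply a probe, and values are log2 signals, so that a difference of 1 is a 2-fold change. Values per sample were used for 4704 probes, or 21.2% of the array, and they are a selection: each has at least 0.46 between the highest and the lowest mean of the series' 4 groups. Names come from the authors' lists for hypoxia against normoxia, which run to an unadjusted p of 0.05, so each of the 2562 named genes had been picked by a comparison that uses these same normoxic samples. Genes without such a name, Tnni3, Myh6, Myl7, Nppa and Mki67 among them, were not analysed here. The medians of the 8 arrays were 7.49 to 7.69 and the lowest correlation between any 2 of them was 0.89. Age separated the samples along the first principal component, which held 64.5% of the variance of the 8 arrays, with P30 samples at 29.4 to 49.4 and P8 samples at -50.6 to -34.5. Only the selected probes entered, and a selection by gaps between group means favours such a separation. Along the second component, with 10.6%, P30 sample 5 (-27.0) and P8 sample 13 (29.6) lay at opposite ends, and values without 1 of these samples are given for some of the genes in which it stood apart. No cell type was separated before the RNA was taken, so fewer cells of a type and less RNA per cell cannot be told apart.

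Of the 4704 probes, 1627 (34.6%) differed between P30 and P8 at an adjusted p of up to 0.05 in limma's moderated test, 859 (18.3%) higher and 768 (16.3%) lower at P30. Such probes are said below to have risen or fallen with age. Among genes with 1 name the shares were lower: 714 of 2562 (27.9%), of which 353 (13.8%) rose and 361 (14.1%) fell. The samples of the 2 ages did not overlap in 1963 probes (41.7%) and in 901 named genes (35.2%). Differences beyond 1 on the log2 scale were found in 754 called probes that rose and 587 that fell, and beyond 2 in 232 and 126. Leaving out P30 sample 3 gave 1079 calls in place of 1627. With each normoxic sample left out in turn, calls ran from 1079 to 1386, with 588 to 756 higher and 491 to 645 lower. Smaller counts of a list in such settings thus come with fewer calls over all probes. Where a base for such a setting is given, it is all 4704 probes, which were called more often than named genes. Each gene group below is read against the shares of named genes, 13.8% higher and 14.1% lower. Most genes given with their values per sample were picked because they were called without overlap between ages. For these the lack of overlap follows from the choice and adds no support.

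Largest of all falls among named genes was that of Tnni1, the slow skeletal troponin I of the fetal heart. Its log2 signal was 3.57, 3.18, 4.17 and 3.16 in the P30 samples, against 13.83, 13.23, 10.44 and 10.69 in the P8 samples (samples in the order 2, 3, 4 and 5, and 13, 22, 23 and 24, as throughout). Every P8 sample was above every P30 sample by more than 6 on the log2 scale, and the P30 values all lie under 5, the 20th percentile of all values in the table, at the dim end of the array. The difference was -8.53 (SE 0.62, adjusted p = 4.88e-08), a nominal 369-fold. Folds are called nominal where 1 age has a mean under 5, because no detection measure was used here. P8 samples 13 and 22 stood above samples 23 and 24.

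Other parts of the sarcomere moved both ways. Of 21 measured sarcomere genes, 5 rose (23.8%) and 6 fell (28.6%). Cryab, a small heat shock protein that binds desmin and titin, had 17.28, 17.06, 16.9 and 17.37 in the P30 samples, against 14.84, 15.62, 15.78 and 15.81 in the P8 samples (log2 difference 1.64, SE 0.27, adjusted p = 0.000592). In Cryab the ages did not overlap. Smyd2, a lysine methyltransferase found in the sarcomere, fell, with 12.56, 12.53, 12.3 and 12.92 in the P30 samples, against 13.79, 14.38, 14.08 and 14.68 in the P8 samples (log2 difference -1.66, SE 0.25, adjusted p = 0.000307). For Myh7, the slow myosin that is prominent before birth in mice, the test was not passed, with 15.43, 15.79, 16.19 and 14.85 in the P30 samples, against 17.23, 17.62, 16.21 and 15.27 in the P8 samples (log2 difference -1.02, SE 0.4, adjusted p = 0.174). P8 samples 13 and 22 were above all P30 samples for Myh7, P8 sample 23 was level with the highest of them and P8 sample 24 lay within their range. Ttn, the molecular spring titin, differed by 1.06 and Tpm2, a tropomyosin, by -0.59, neither past the threshold. The number of sarcomere genes that fell was 2 without P8 sample 23 or without P30 sample 5, and 3 without P8 sample 22 or P30 sample 2. It was also 2 when only the 8 normoxic arrays entered the fit. Over all 4704 probes 768 fell as reported. Without P8 sample 23, P30 sample 5, P8 sample 22 or P30 sample 2 this was 617, 643, 541 and 529 in turn, and 459 in the 8 arrays alone.

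Ckmt2, the creatine kinase of heart muscle mitochondria, rose, with 17.84, 17.7, 16.81 and 17.82 in the P30 samples, against 13.83, 14.88, 15.74 and 15.93 in the P8 samples (log2 difference 2.45, SE 0.39, adjusted p = 0.000486). P30 sample 4 was the lowest of its age and was still above every P8 sample. Among 14 regulators of heart muscle maturation, 3 rose and 1 fell. Nr3c2, the mineralocorticoid receptor, had 7.09, 7.28, 7.46 and 7.73 in the P30 samples, against 5.86, 6.06, 5.84 and 6.19 in the P8 samples (log2 difference 1.4, SE 0.23, adjusted p = 0.000558), and Esrrg, the oestrogen-related receptor gamma that drives mitochondrial genes, had 7.96, 7.54, 8.0 and 8.62 in the P30 samples, against 6.79, 6.82, 7.22 and 6.83 in the P8 samples (log2 difference 1.11, SE 0.25, adjusted p = 0.00863). Pparg, a fatty acid receptor best known from fat cells, was more spread, with 8.27, 8.15, 7.25 and 6.32 in the P30 samples, against 4.29, 4.35, 5.07 and 6.17 in the P8 samples (log2 difference 2.53, SE 0.45, adjusted p = 0.00123), and P30 sample 5 came close to P8 sample 24. The gene of this group that fell, Hopx, a homeodomain protein of the growing heart, differed by -1.55, adjusted p = 0.00795, with ages that overlap. Ppargc1a and Ppara, a coactivator and a receptor that raise fatty acid burning, differed by 1.07 and 0.8, and Thrb, a thyroid hormone receptor, by 1.33. None of these 3 passed the threshold.

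**Figure D1:**
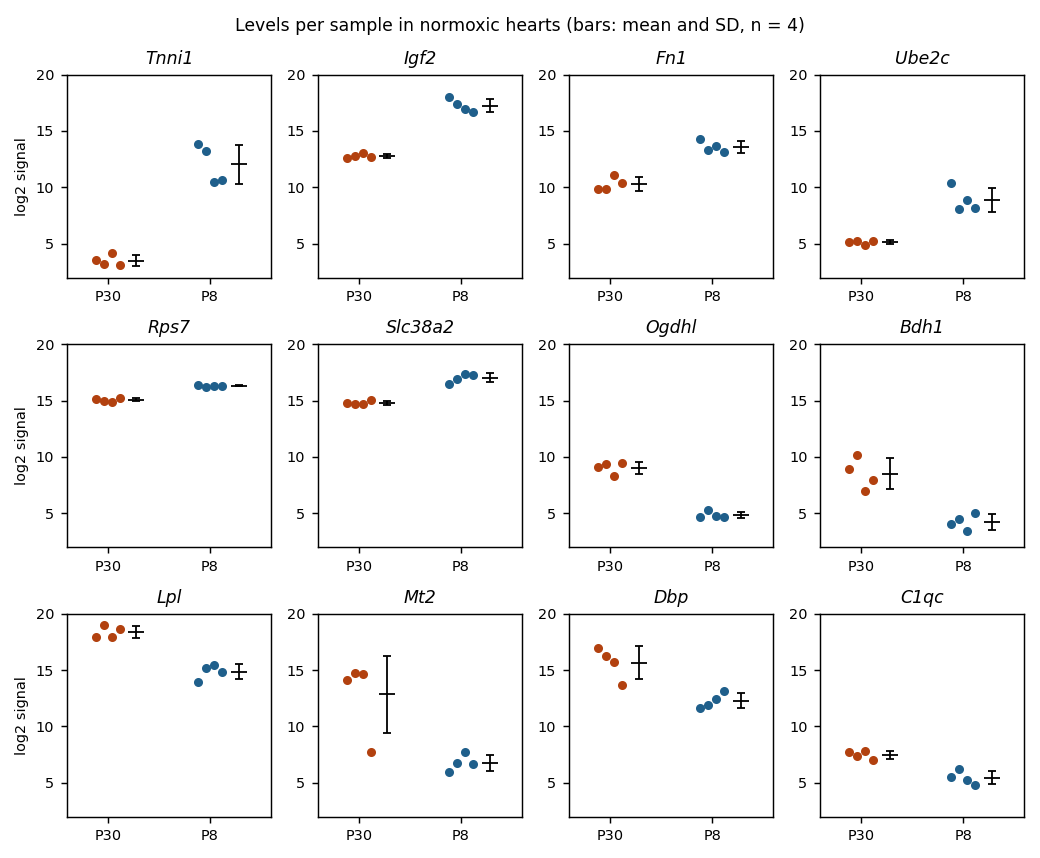
Log2 signal of 12 genes in each normoxic sample, P30 (left, red-brown) and P8 (right, blue), on 1 common axis, with the mean and SD beside the points (n = 4 each). No gene shown has overlapping ages, which the choice of these genes required, and in Mt2 and Dbp P30 sample 5 lies apart from the other P30 samples.

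Imprinted growth genes, which are read from 1 parental copy and promote or restrain growth before weaning, fell as a group. Of 10 measured, 6 fell (60%) and none rose, with a median difference of -1.84 against -0.0975 over all named genes. Igf2, the fetal insulin-like growth factor, had 12.61, 12.74, 13.09 and 12.68 in the P30 samples, against 17.98, 17.41, 16.91 and 16.64 in the P8 samples. The 4 P30 samples lay within 0.48 of each other and all P8 samples were higher by at least 3.55 (log2 difference -4.46, SE 0.36, adjusted p = 2.26e-07, 21.9-fold lower at P30). Plagl1, a zinc finger factor that regulates other imprinted genes, had 4.81, 3.97, 5.85 and 6.41 in the P30 samples, against 10.16, 9.71, 9.38 and 8.24 in the P8 samples (log2 difference -4.11, SE 0.53, adjusted p = 5.55e-05). Mest, a hydrolase-like protein of growing mesoderm, had 12.9, 12.32, 10.46 and 13.3 in the P30 samples, against 17.9, 15.87, 16.13 and 15.13 in the P8 samples (log2 difference -4.01, SE 0.74, adjusted p = 0.00155). Slc38a4, an amino acid transporter, had 7.43, 7.39, 8.74 and 8.43 in the P30 samples, against 10.75, 10.99, 11.08 and 11.32 in the P8 samples (log2 difference -3.04, SE 0.35, adjusted p = 1.68e-05), and Peg3, a zinc finger protein, had 5.42, 5.4, 5.24 and 6.19 in the P30 samples, against 8.74, 8.19, 7.36 and 7.05 in the P8 samples (log2 difference -2.27, SE 0.38, adjusted p = 0.000782). In all 5 genes the ages did not overlap, which their choice required. The median level of the group was 6.78 to 7.64 in the P30 samples and 9.69 to 10.46 in the P8 samples. Of the 4 members that did not pass, Igf2r, the receptor that clears Igf2, differed by -0.77, Ppp1r9a by -0.72, Usp29 by -0.5 and Asb4 by 0.21. Igf2bp3, an oncofetal protein that binds Igf2 mRNA and others, fell too, with 4.0, 4.98, 5.49 and 4.85 in the P30 samples, against 6.66, 5.85, 6.79 and 6.63 in the P8 samples (log2 difference -1.65, SE 0.31, adjusted p = 0.00177), as 1 of 4 genes in a list of the IGF system.

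No gene of cell division rose. In a list of 72 genes of mitosis, 35 fell (48.6%) and 70 had a difference below 0, with a median of -1.22. Ube2c, the ubiquitin-conjugating enzyme that works with the anaphase-promoting complex, had 5.12, 5.29, 4.88 and 5.22 in the P30 samples, against 10.38, 8.11, 8.85 and 8.21 in the P8 samples (log2 difference -3.76, SE 0.39, adjusted p = 4.65e-06). P8 sample 13 was highest, and the P30 samples lay within 0.41 of each other. Cdk1, the kinase that starts mitosis, had 2.9, 3.41, 3.14 and 2.6 in the P30 samples, against 7.34, 4.64, 5.73 and 5.94 in the P8 samples (log2 difference -2.9, SE 0.42, adjusted p = 0.00018), so its P30 values lie at the dim end of the array. Ccna2, cyclin A2, had 6.08, 7.42, 6.53 and 6.48 in the P30 samples, against 11.7, 8.68, 9.73 and 8.88 in the P8 samples (log2 difference -3.12, SE 0.51, adjusted p = 0.000611). Cdca3, a trigger of mitotic entry, had 3.69, 4.46, 3.9 and 2.87 in the P30 samples, against 6.82, 6.11, 4.93 and 5.54 in the P8 samples (log2 difference -2.12, SE 0.37, adjusted p = 0.001). P8 sample 13 was the highest sample in each of these 4 genes, and the median of the list was 7.13 there, against 5.42 to 5.73 in the other P8 samples and 4.41 to 4.96 in the P30 samples. Without that sample 22 of the 72 genes fell, and 592 of all 4704 probes. Ube2c then differed by -3.26, adjusted p = 3.28e-06, Cdk1 by -2.42, adjusted p = 0.000428, Ccna2 by -2.47, adjusted p = 0.000941 and Cdca3 by -1.8, adjusted p = 0.00439. When only the 8 normoxic arrays entered the fit, 21 of the 72 fell, against 459 of all 4704 probes in that fit.

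Genes of DNA replication gave a smaller share, with 9 of 27 lower (33.3%), none higher and a median difference of -0.82. Rrm2, the small subunit of ribonucleotide reductase, had 6.31, 6.17, 6.17 and 5.14 in the P30 samples, against 9.71, 8.24, 8.1 and 7.15 in the P8 samples (log2 difference -2.35, SE 0.41, adjusted p = 0.001). Its large subunit Rrm1 had 6.23, 7.3, 8.4 and 7.32 in the P30 samples, against 10.76, 9.57, 8.64 and 8.85 in the P8 samples (log2 difference -2.14, SE 0.44, adjusted p = 0.00407). Pold2, a subunit of DNA polymerase delta, had 8.6, 8.27, 8.42 and 8.84 in the P30 samples, against 9.51, 9.72, 9.36 and 9.47 in the P8 samples (log2 difference -0.98, SE 0.25, adjusted p = 0.0169). The count was 4 or 5 without any 1 of P8 samples 13 and 22 and P30 samples 2, 3, 4 and 5, and the Pold2 call was lost without P8 sample 22 or P30 sample 3. The median level of this list was 5.14 to 5.70 in the P30 samples and 5.34 to 7.20 in the P8 samples, with overlap. Among 6 inhibitors of the cell cycle, Ccng1, cyclin G1, rose (log2 difference 0.83, SE 0.21, adjusted p = 0.0165) and Rbl1, a retinoblastoma relative, fell (log2 difference -1.28, SE 0.33, adjusted p = 0.0191), and both calls were lost in the 8 arrays alone. That of Ccng1 was also lost without P8 sample 22 or P30 sample 3, and that of Rbl1 without P8 sample 13 or P30 sample 5. Cdkn1a, the inhibitor p21, differed by -0.02 and did not pass.

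The promoters of 3 of the mitosis genes that fell are shown because genes of mitosis are known to share 2 promoter elements, the cell cycle genes homology region (CHR, searched as TTTGAA) and the CCAAT box (searched as CCAAT), both searched on both strands. Sequences are from RefSeq in GRCm38.p6, on the gene's strand, from 250 bases before to 50 after the annotated start, with matches of either motif in capitals. Adjacent or overlapping matches run together.
Ube2c, chr2:164769679-164769978, plus strand: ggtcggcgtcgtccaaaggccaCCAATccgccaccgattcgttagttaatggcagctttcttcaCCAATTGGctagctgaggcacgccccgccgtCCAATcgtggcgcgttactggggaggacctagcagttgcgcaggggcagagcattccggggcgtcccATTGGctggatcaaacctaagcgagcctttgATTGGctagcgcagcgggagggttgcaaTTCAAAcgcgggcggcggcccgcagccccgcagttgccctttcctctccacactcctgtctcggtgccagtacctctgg
Cdk1, chr10:69352863-69353162, minus strand: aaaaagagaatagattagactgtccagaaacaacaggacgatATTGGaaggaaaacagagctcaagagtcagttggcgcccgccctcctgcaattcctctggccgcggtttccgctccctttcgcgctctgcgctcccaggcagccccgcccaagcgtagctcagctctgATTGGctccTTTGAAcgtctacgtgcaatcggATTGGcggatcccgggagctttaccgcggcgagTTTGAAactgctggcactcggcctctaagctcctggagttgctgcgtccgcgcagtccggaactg
Cdca3, chr6:124829926-124830225, plus strand: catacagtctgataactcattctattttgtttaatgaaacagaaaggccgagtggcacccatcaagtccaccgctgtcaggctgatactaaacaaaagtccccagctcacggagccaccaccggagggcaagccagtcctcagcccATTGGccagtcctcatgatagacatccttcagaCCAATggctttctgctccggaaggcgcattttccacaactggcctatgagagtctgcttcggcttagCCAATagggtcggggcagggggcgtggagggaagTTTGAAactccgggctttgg

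A CHR word lay 29 bases before the Ube2c start, at 71 and 15 bases before the Cdk1 start, and 30 bases after the Cdca3 start. CCAAT words numbered 6, 3 and 3 in the promoters of Ube2c, Cdk1 and Cdca3. Of the 35 mitosis genes that fell, 29 had a promoter in the table, in 30 windows, of which 20 (66.7%) held the CHR word and 22 (73.3%) the CCAAT word. Those of the mitosis genes that did not pass gave nearly the same shares, with 21 of 31 windows (67.7%) and 22 of 31 (71.0%). Over all 32851 promoter windows the shares were 17.9% and 37.4%. The mitosis genes that fell and those that did not pass thus had similar shares, and a match in these letters is not a measured binding site.

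Matrix genes gave the next block of falls. Of 31 collagens and other matrix genes, 10 fell (32.3%) and 1 rose, the basement membrane laminin chain Lamb2 (1.16, adjusted p = 0.0192, ages overlapping), a call lost in the 8 arrays alone and without P8 sample 24 or P30 sample 3 or 5. Thbs1, thrombospondin 1, which binds and activates TGF-beta, had 4.08, 3.64, 4.83 and 5.22 in the P30 samples, against 7.29, 9.68, 9.87 and 8.9 in the P8 samples (log2 difference -4.49, SE 0.45, adjusted p = 3.16e-06). Fn1, fibronectin, had 9.83, 9.88, 11.08 and 10.4 in the P30 samples, against 14.26, 13.29, 13.65 and 13.12 in the P8 samples (log2 difference -3.28, SE 0.38, adjusted p = 1.66e-05, 9.73-fold lower at P30). Tnc, tenascin C, a matrix protein of developing and injured tissue, had 4.26, 5.24, 5.4 and 4.92 in the P30 samples, against 8.7, 7.75, 7.91 and 6.47 in the P8 samples (log2 difference -2.75, SE 0.39, adjusted p = 0.00015). In each of these the lowest P8 sample was above the highest P30 sample. Eln, elastin, had 10.6, 9.38, 11.33 and 10.81 in the P30 samples, against 15.54, 13.86, 14.43 and 12.19 in the P8 samples (log2 difference -3.48, SE 0.72, adjusted p = 0.00408), with P8 samples spread over more than 3 log2 units. Col1a1, the main chain of collagen I, had 10.23, 10.39, 11.51 and 10.48 in the P30 samples, against 13.67, 13.08, 12.69 and 12.25 in the P8 samples (log2 difference -2.27, SE 0.35, adjusted p = 0.000343). Ncam1, an adhesion molecule outside this list, had 7.55, 8.01, 10.07 and 8.26 in the P30 samples, against 12.31, 11.87, 12.14 and 12.16 in the P8 samples (log2 difference -3.65, SE 0.73, adjusted p = 0.00307), with the 4 P8 samples within 0.44 of each other.

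Sfrp2, a secreted regulator of Wnt signalling and collagen processing, had 4.83, 5.26, 6.34 and 6.11 in the P30 samples, against 9.5, 9.6, 8.02 and 8.18 in the P8 samples (log2 difference -3.19, SE 0.38, adjusted p = 2.15e-05). Sema3c, a guidance cue of the outflow tract, had 7.51, 7.71, 7.95 and 8.31 in the P30 samples, against 9.3, 9.18, 9.63 and 8.97 in the P8 samples (log2 difference -1.4, SE 0.26, adjusted p = 0.0019). These were the 2 of 12 developmental signalling genes that fell, and 3 rose, among them Bmp4 (log2 difference 1.44, SE 0.37, adjusted p = 0.02) and the Wnt receptor Fzd4 (log2 difference 0.99, SE 0.26, adjusted p = 0.0214). The Bmp4 call was lost without any 1 of P8 samples 22 and 23 and P30 samples 3 and 4, and the Fzd4 call without any 1 of P8 samples 13 and 24 and P30 samples 2 and 3. That of Fzd4 was also lost in the 8 arrays alone. Proteases of the matrix and their inhibitors moved both ways, with 6 of 18 higher and 5 lower. Timp4, the metalloproteinase inhibitor that is abundant in the adult heart, had 11.61, 12.43, 11.86 and 9.8 in the P30 samples, against 6.04, 6.41, 8.03 and 7.24 in the P8 samples (log2 difference 4.5, SE 0.48, adjusted p = 5.42e-06, 22.5-fold). P30 sample 5 was lowest of its age, and without it the difference was 5.04, adjusted p = 2.32e-07. Htra3, a secreted serine protease, rose too, with 12.65, 12.25, 12.32 and 12.65 in the P30 samples, against 9.43, 10.79, 10.77 and 10.77 in the P8 samples (log2 difference 2.03, SE 0.35, adjusted p = 0.0009), and P8 sample 13 lay below the other 3 of its age. Its relative Htra1 fell, with 10.97, 10.7, 11.41 and 11.21 in the P30 samples, against 11.92, 12.24, 12.24 and 12.22 in the P8 samples (log2 difference -1.08, SE 0.22, adjusted p = 0.00374), as did Plat, the tissue plasminogen activator, with 5.93, 6.19, 6.07 and 6.24 in the P30 samples, against 8.18, 7.55, 6.95 and 7.06 in the P8 samples (log2 difference -1.33, SE 0.29, adjusted p = 0.00602). The number of these genes that rose was 2 without P8 sample 13 or in the 8 arrays alone, and 3 without P30 sample 3 or 4.

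Among fuels, the enzymes that break down ketone bodies and branched chain amino acids moved most as a group. Of 10 measured, 8 rose (80%), 1 fell and the median difference was 1.82. The median level of the list was 10.33 to 10.41 in the P30 samples and 8.15 to 8.88 in the P8 samples. Bdh1, the mitochondrial enzyme that oxidises beta-hydroxybutyrate, had 8.94, 10.17, 6.97 and 7.94 in the P30 samples, against 4.04, 4.51, 3.43 and 5.07 in the P8 samples (log2 difference 4.24, SE 0.49, adjusted p = 1.59e-05, a nominal 18.9-fold). Its P30 values covered more than 3 log2 units and all lay above P8. Dbt and Mccc2 act on branched chain amino acids, Dbt as a core part of the dehydrogenase complex and Mccc2 as part of methylcrotonyl-CoA carboxylase in leucine breakdown. Dbt had 10.07, 10.48, 10.03 and 10.81 in the P30 samples, against 8.19, 8.29, 8.38 and 8.4 in the P8 samples (log2 difference 2.03, SE 0.24, adjusted p = 1.68e-05). Mccc2 had 10.75, 10.1, 10.21 and 9.93 in the P30 samples, against 8.11, 7.83, 8.73 and 8.75 in the P8 samples (log2 difference 1.89, SE 0.25, adjusted p = 6.39e-05). Aldh6a1, which acts late in valine breakdown, had 11.27, 12.58, 12.42 and 11.41 in the P30 samples, against 7.8, 9.34, 9.93 and 8.93 in the P8 samples (log2 difference 2.92, SE 0.41, adjusted p = 0.000126). All 3 were without overlap.

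Fatty acid genes rose in part. Of 17 measured, 7 rose (41.2%) and 2 fell, with a median of 0.35. Lpl, the lipase that frees fatty acids from lipoproteins at the capillary wall, had 17.9, 18.97, 17.97 and 18.66 in the P30 samples, against 13.94, 15.21, 15.42 and 14.87 in the P8 samples (log2 difference 3.52, SE 0.33, adjusted p = 1.55e-06, 11.4-fold). Acad11, an acyl-CoA dehydrogenase of long chains, had 10.48, 10.84, 9.9 and 10.65 in the P30 samples, against 6.75, 7.05, 8.3 and 7.57 in the P8 samples (log2 difference 3.05, SE 0.31, adjusted p = 3.16e-06). The ages were apart by more than 1.5 log2 units in both. Lipe, hormone-sensitive lipase, had 8.24, 8.31, 9.04 and 8.28 in the P30 samples, against 5.94, 7.07, 6.22 and 6.33 in the P8 samples (log2 difference 2.08, SE 0.31, adjusted p = 0.000199) and Pnpla2, the triglyceride lipase ATGL, had 14.66, 14.87, 15.02 and 14.61 in the P30 samples, against 12.38, 12.75, 13.44 and 13.34 in the P8 samples (log2 difference 1.81, SE 0.29, adjusted p = 0.000404). The 2 that fell were Ucp2, a mitochondrial carrier (-2.52, adjusted p = 0.00147), and Hadh, a hydroxyacyl-CoA dehydrogenase (-0.94, adjusted p = 0.0333). Only 1 of them fell in the 8 arrays alone, or without any 1 of P8 samples 13, 22 and 23 and P30 samples 2 and 5. Gpam, which makes the first step of triglyceride synthesis, rose, with 14.57, 14.56, 14.64 and 13.56 in the P30 samples, against 12.18, 11.94, 12.72 and 12.85 in the P8 samples (log2 difference 1.91, SE 0.3, adjusted p = 0.000328), as 1 of 17 genes of lipid synthesis and storage. Hmgcs1 of the sterol pathway fell (log2 difference -0.95, SE 0.28, adjusted p = 0.0429), and its call was lost in the 8 arrays alone and without any 1 of the 8 samples other than P8 sample 24.

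Respiratory chain and TCA cycle genes hardly moved: of 21 measured, 1 rose and 1 fell, below the shares over all named genes, and the 21 differences ran from -0.98 to 0.85. Uqcrfs1, the Rieske iron-sulphur protein of complex III, had 16, 15.86, 15.51 and 15.64 in the P30 samples, against 14.75, 14.93, 15.33 and 14.62 in the P8 samples (log2 difference 0.84, SE 0.25, adjusted p = 0.0443), and Cox6a1, a subunit of cytochrome oxidase, had 13.44, 12.95, 13.27 and 13.48 in the P30 samples, against 13.71, 14.56, 14.54 and 14.23 in the P8 samples (log2 difference -0.97, SE 0.29, adjusted p = 0.0461). Neither call held in the 8 arrays alone. The Uqcrfs1 call was lost without any 1 sample other than P8 sample 23, and the Cox6a1 call without any 1 other than P8 sample 13. Ogdhl, a relative of the 2-oxoglutarate dehydrogenase of the TCA cycle that was not in this list, had 9.1, 9.35, 8.29 and 9.49 in the P30 samples, against 4.71, 5.3, 4.75 and 4.64 in the P8 samples (log2 difference 4.21, SE 0.3, adjusted p = 4.88e-08, a nominal 18.5-fold), which gave it the lowest adjusted p of the genes that rose and the same one as Tnni1.

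Of 23 genes of glycolysis and glucose uptake, 5 rose (21.7%) and 1, the pyruvate dehydrogenase kinase Pdk3, fell (-1.14, adjusted p = 0.0288), a call lost in the 8 arrays alone and without any 1 of P8 samples 13 and 23 and P30 samples 2, 3 and 5. Pfkfb1, which sets the level of fructose 2,6-bisphosphate, had 9.4, 9.85, 10.99 and 7.15 in the P30 samples, against 7.07, 6.33, 6.1 and 6.36 in the P8 samples (log2 difference 2.88, SE 0.5, adjusted p = 0.000944), and without P30 sample 5 the difference was 3.62, adjusted p = 8.23e-07. Slc2a1, the glucose transporter GLUT1, had 9.69, 9.44, 10.11 and 10.37 in the P30 samples, against 8.6, 8.7, 8.22 and 8.69 in the P8 samples (log2 difference 1.35, SE 0.25, adjusted p = 0.00152). Phka1, a subunit of phosphorylase kinase, had 9.04, 9.79, 9.27 and 9.05 in the P30 samples, against 8.49, 7.51, 7.97 and 6.74 in the P8 samples (log2 difference 1.61, SE 0.29, adjusted p = 0.00124), and Pfkl, a phosphofructokinase, had 10.72, 10.67, 9.84 and 10.59 in the P30 samples, against 9.57, 9.09, 9.45 and 9.44 in the P8 samples (log2 difference 1.07, SE 0.25, adjusted p = 0.0103). The other 17, which include Hk1 (-0.53), Pgk1 (-0.21), Pkm (0.12) and Ldha (0.29), did not pass. A list of 14 known HIF targets (HIF is the hypoxia-inducible factor) had 5 genes that rose and none that fell. Bnip3, a mitophagy receptor, had 11.57, 12, 10.99 and 10.3 in the P30 samples, against 8.45, 8.51, 8.22 and 8.56 in the P8 samples (log2 difference 2.78, SE 0.32, adjusted p = 1.55e-05). P4ha1, a collagen prolyl hydroxylase, had 10.73, 10.26, 10.54 and 10.72 in the P30 samples, against 9.83, 9.27, 8.88 and 8.76 in the P8 samples (log2 difference 1.38, SE 0.28, adjusted p = 0.00374). Slc2a1 is in both lists. The count of HIF targets that rose was 3 without P8 sample 13 or P30 sample 3.

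**Figure D2:**
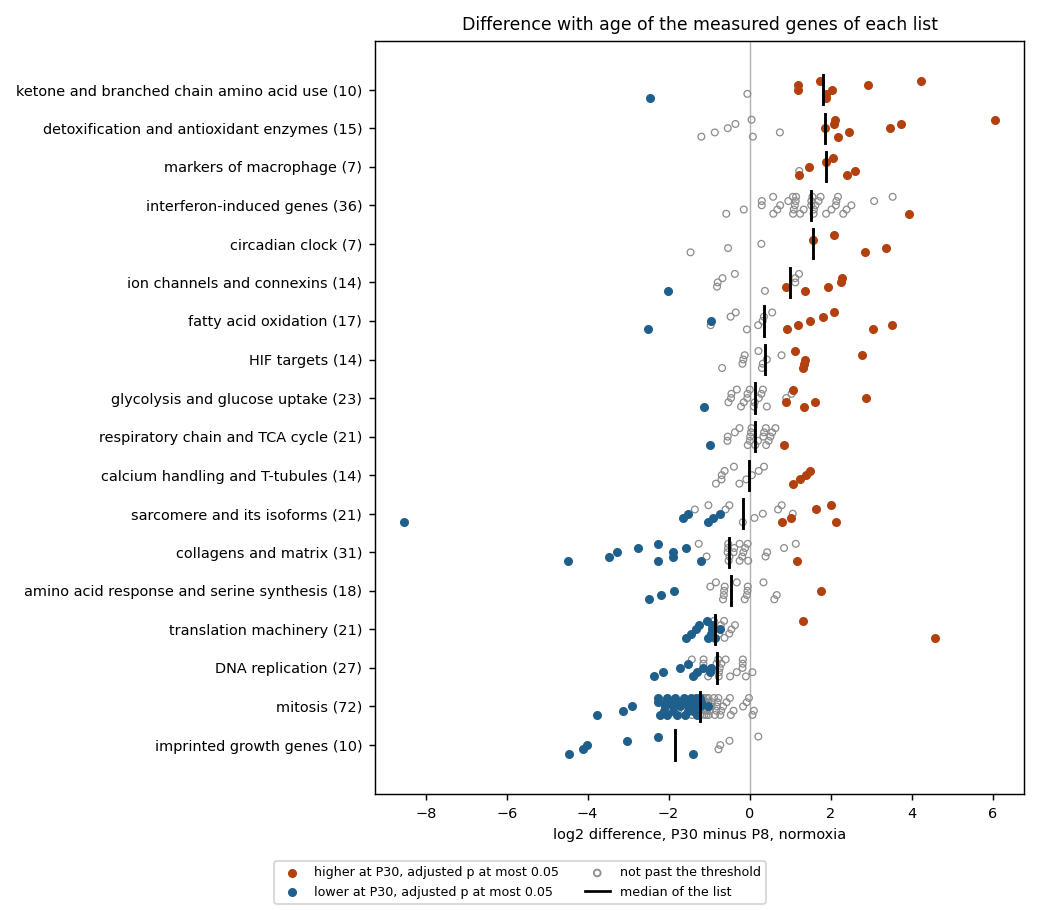
Log2 difference, P30 minus P8 in normoxia, of each measured gene of 18 lists (number of genes in brackets), with genes past an adjusted p of 0.05 filled (red-brown higher, blue lower) and the median of each list as a bar. Mitosis, translation and imprinted genes lie mainly left of 0, ketone and branched chain amino acid, detoxification and macrophage genes mainly right of it.

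Genes of excitation moved upward in part. Of 14 ion channels and connexins, 5 rose (35.7%) and 1 fell. Kcnn1, a calcium-activated potassium channel, had 7.42, 7.89, 7.22 and 7.38 in the P30 samples, against 5.09, 4.89, 5.49 and 5.34 in the P8 samples (log2 difference 2.27, SE 0.23, adjusted p = 4.22e-06). Scn4a, a sodium channel best known from skeletal muscle, had 5.8, 6.49, 5.62 and 6.07 in the P30 samples, against 4.52, 4.59, 4.66 and 4.74 in the P8 samples (log2 difference 1.37, SE 0.24, adjusted p = 0.000966). The one that fell was Gja1, connexin 43, which couples heart muscle cells electrically, with 14.83, 14.67, 14 and 16.52 in the P30 samples, against 17.12, 17.15, 17.02 and 16.77 in the P8 samples (log2 difference -2.01, SE 0.36, adjusted p = 0.00128). Its P8 samples lay within 0.38 of each other, P30 sample 5 was nearest to them, and without sample 5 the difference was -2.52, adjusted p = 3.32e-06. The potassium channel genes Kcnip2 (1.13), Kcnd2 (1.13) and Kcnh2 (-0.79) did not pass.

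In calcium handling, 4 of 14 genes rose (28.6%) and none fell, with a median near 0. Hrc, a calcium-binding protein of the sarcoplasmic reticulum, had 16.84, 17.11, 16.26 and 17.44 in the P30 samples, against 14.91, 15.36, 15.57 and 15.82 in the P8 samples (log2 difference 1.5, SE 0.31, adjusted p = 0.00398). Cacna1c, the pore of the L-type calcium channel, had 14.62, 15.4, 15.43 and 15.68 in the P30 samples, against 14.43, 13.86, 14.16 and 13.7 in the P8 samples (log2 difference 1.25, SE 0.33, adjusted p = 0.025) and its auxiliary subunit Cacna2d1 had 10.38, 10.46, 10.61 and 11.57 in the P30 samples, against 9.23, 9.14, 10.16 and 10.17 in the P8 samples (log2 difference 1.08, SE 0.29, adjusted p = 0.0262). The other was Jph1, a junctophilin (1.4, adjusted p = 0.0148, ages overlapping). Ryr2, the release channel of the heart, differed by 0.06 and Slc8a1, the sodium-calcium exchanger, by -0.62, neither past the threshold. Only 2 of the 14 rose without any 1 of P8 samples 22 and 24 and P30 samples 4 and 5. The Cacna1c call was lost without any 1 of these or P30 sample 3, and the Cacna2d1 call without P8 sample 13 or 22 or P30 sample 5. In the 8 arrays alone 2 of the 14 rose as well, and the Cacna2d1 call was lost. Prkar1a, the regulatory subunit of protein kinase A, fell, with 13.84, 13.78, 13.5 and 14.19 in the P30 samples, against 14.71, 15.32, 15.03 and 15.01 in the P8 samples (log2 difference -1.19, SE 0.22, adjusted p = 0.00163), as 1 of 5 genes of adrenergic, muscarinic and cyclic nucleotide signalling.

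Nppb, the natriuretic peptide BNP that is released on stretch, was lower at P30, with 11.93, 10.39, 13.38 and 10.92 in the P30 samples, against 12.26, 15.05, 15.21 and 16.13 in the P8 samples (log2 difference -3.01, SE 0.66, adjusted p = 0.00674). P8 sample 13 lay among the P30 samples, and without it the difference was -3.81, adjusted p = 0.000288. In the 8 arrays alone the adjusted p was 0.0513. Uchl1, a deubiquitinase, passed the test with 3.09, 3.9, 3.17 and 3.02 in the P30 samples, against 4.38, 4.6, 4.65 and 4.51 in the P8 samples (log2 difference -1.24, SE 0.28, adjusted p = 0.00879), but all 8 signals are under 5, at the dim end of the array. The stress genes Egr1 (-0.05), Myc (-0.42) and Hspa1a (-0.17) did not pass.

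Protein synthesis genes were lower at P30. Of 21 genes of the translation machinery, 11 fell (52.4%) and 2 rose, with a median of -0.86. Rps7 and Rps15a are proteins of the small ribosomal subunit. Rps7 had 15.11, 14.99, 14.9 and 15.22 in the P30 samples, against 16.36, 16.23, 16.31 and 16.3 in the P8 samples (log2 difference -1.25, SE 0.24, adjusted p = 0.00275). Rps15a had 11.39, 10.74, 10.94 and 10.94 in the P30 samples, against 12.59, 12.6, 12.07 and 13.04 in the P8 samples (log2 difference -1.57, SE 0.29, adjusted p = 0.00179), and Rps27l, a variant of Rps27, had 9.47, 8.63, 8.85 and 8.71 in the P30 samples, against 9.62, 10.12, 10.57 and 10.6 in the P8 samples (log2 difference -1.31, SE 0.26, adjusted p = 0.00283). Each of the 3 fell by between 1 and 2 on the log2 scale, without overlap. All 19 members other than the 2 that rose had a difference below 0, and median levels of the list were 11.86 to 12.26 in the P30 samples and 12.59 to 13.20 in the P8 samples. The number that fell was 6 in the 8 arrays alone, where 459 of all 4704 probes fell, and 7 without P8 sample 22 or P30 sample 5. Ribosomal protein genes have many near-identical processed copies, and how far the probes tell them apart is not known here.

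The 2 that rose are forms of striated muscle. Rpl3l, the ribosomal protein that takes the place of Rpl3 in heart and skeletal muscle, had 12.46, 12.44, 11.87 and 12.96 in the P30 samples, against 6.78, 7.34, 8.86 and 8.42 in the P8 samples (log2 difference 4.58, SE 0.39, adjusted p = 5.54e-07, 24-fold). Eef1a2, the elongation factor form of adult muscle and nerve, differed by 1.32, adjusted p = 0.0135 (only 1 of the 2 rose in the 8 arrays alone, or without P8 sample 13 or P30 sample 5), while Eef1a1, its widely expressed relative, was among those that fell (-0.73, adjusted p = 0.016). Of 18 genes of the amino acid response and serine synthesis, 3 fell (16.7%, close to the 14.1% of all named genes) and 1 rose. Slc38a2, a transporter of neutral amino acids, had 14.81, 14.65, 14.72 and 15.04 in the P30 samples, against 16.46, 16.93, 17.34 and 17.29 in the P8 samples (log2 difference -2.2, SE 0.22, adjusted p = 3.16e-06). Slc38a1, a close relative, had 6.64, 8.81, 7.84 and 8.04 in the P30 samples, against 9.87, 11.01, 10.3 and 10.12 in the P8 samples (log2 difference -2.49, SE 0.49, adjusted p = 0.00256), and Psat1, an enzyme of serine synthesis, had 4.29, 4.36, 5.3 and 3.95 in the P30 samples, against 7.29, 5.96, 5.92 and 6.2 in the P8 samples (log2 difference -1.87, SE 0.37, adjusted p = 0.00297). Stc2, the secreted glycoprotein stanniocalcin 2, rose, with 8.73, 8.09, 8.61 and 8.88 in the P30 samples, against 7.11, 6.2, 6.64 and 7.28 in the P8 samples (log2 difference 1.77, SE 0.28, adjusted p = 0.000411).

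Metallothioneins, small proteins that bind zinc and copper, gave the largest rise of all named genes. Mt2 had 14.14, 14.78, 14.66 and 7.78 in the P30 samples, against 5.97, 6.76, 7.73 and 6.67 in the P8 samples. In 3 P30 samples it was above 14, while P30 sample 5, at 7.78, was next to P8 sample 23 at 7.73. The difference was 6.06 (SE 1.02, adjusted p = 0.000751), and without P30 sample 5 it was 7.74, adjusted p = 9.04e-09. Mt1 had 19.4, 19.38, 19.27 and 17.16 in the P30 samples, against 14.63, 14.46, 15.51 and 15.64 in the P8 samples (log2 difference 3.74, SE 0.57, adjusted p = 0.000277), again with P30 sample 5 lowest of its age. The 2 genes are neighbours on mouse chromosome 8 and similar in sequence.

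Their promoters are shown because metallothionein genes are known to carry metal response elements, searched as TGCACNC and TGCGCNC on both strands, which can overlap, with matches in capitals. The windows are from RefSeq in GRCm38.p6 and span 250 bases before to 50 after the start.
Mt2, chr8:94172368-94172667, plus strand: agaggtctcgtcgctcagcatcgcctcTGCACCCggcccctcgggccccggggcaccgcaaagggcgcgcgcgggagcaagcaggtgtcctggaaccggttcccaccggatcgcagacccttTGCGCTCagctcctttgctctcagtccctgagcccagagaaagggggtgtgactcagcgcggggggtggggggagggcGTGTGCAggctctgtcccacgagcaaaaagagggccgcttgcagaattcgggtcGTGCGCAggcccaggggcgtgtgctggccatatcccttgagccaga
Mt1, chr8:94178839-94179138, plus strand: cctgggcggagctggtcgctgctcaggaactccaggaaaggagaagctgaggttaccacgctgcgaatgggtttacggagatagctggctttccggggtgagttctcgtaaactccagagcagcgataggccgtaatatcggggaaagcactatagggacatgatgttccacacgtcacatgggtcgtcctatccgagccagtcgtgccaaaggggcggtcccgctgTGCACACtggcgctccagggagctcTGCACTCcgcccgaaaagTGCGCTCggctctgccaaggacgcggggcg

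The Mt2 window held 4 matches and the Mt1 window 3. At least 1 match was found in 25.7% of all promoter windows and at least 4 in 0.517%. No measurement of binding or of metal was made in these samples.

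In a list of 15 detoxification and antioxidant genes that includes Mt1 and Mt2 themselves, 8 rose (53.3%) and none fell, with a median of 1.85. Nqo1, a quinone reductase, had 8.94, 9.68, 8.26 and 8.89 in the P30 samples, against 6.38, 6.98, 6.73 and 6.97 in the P8 samples (log2 difference 2.18, SE 0.35, adjusted p = 0.00046). Aldh4a1, an aldehyde dehydrogenase of proline breakdown, had 6.05, 7.21, 6.78 and 7.56 in the P30 samples, against 4.17, 5.38, 4.64 and 4.96 in the P8 samples (log2 difference 2.11, SE 0.35, adjusted p = 0.000686). Neither gene overlapped between ages. Of the 12 largest rises, 2 more are oxidising enzymes: Xdh, xanthine dehydrogenase of purine breakdown, with 10.88, 12.5, 11.14 and 8.0 in the P30 samples, against 4.08, 4.65, 5.12 and 5.59 in the P8 samples (log2 difference 5.77, SE 1.09, adjusted p = 0.00191), and Aox1, an aldehyde oxidase, with 7.94, 9.19, 9.34 and 7.83 in the P30 samples, against 4.64, 4.18, 4.84 and 4.57 in the P8 samples (log2 difference 4.02, SE 0.32, adjusted p = 1.72e-07). Xdh was again lowest in sample 5 among the P30 samples, and without it differed by 6.65, adjusted p = 0.000495. Tmtc1, an enzyme that adds mannose to proteins, had 11.91, 12.35, 13.43 and 11.05 in the P30 samples, against 7.13, 7.87, 7.96 and 7.43 in the P8 samples (log2 difference 4.59, SE 0.51, adjusted p = 1.13e-05), and Tesc, the calcium-binding protein tescalcin, had 11.37, 9.69, 9.71 and 11.76 in the P30 samples, against 7.36, 5.26, 6.93 and 7.11 in the P8 samples (log2 difference 3.97, SE 0.48, adjusted p = 2.54e-05). Among the largest falls outside the lists, Nrep, a protein known from regenerating nerve, had 9.11, 9.1, 8.83 and 8.67 in the P30 samples, against 12.58, 13.45, 12.92 and 12.57 in the P8 samples (log2 difference -3.95, SE 0.35, adjusted p = 6.97e-07), and Itm2a, a membrane protein, had 9.39, 9.27, 10.18 and 8.85 in the P30 samples, against 12.45, 12.66, 12.75 and 12.67 in the P8 samples (log2 difference -3.21, SE 0.27, adjusted p = 2.98e-07). The P8 samples of Itm2a lay within 0.30 of each other.

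Clock genes rose in 4 of 7 cases and none fell. Dbp, an output factor of the circadian clock, had 16.98, 16.26, 15.75 and 13.64 in the P30 samples, against 11.62, 11.94, 12.45 and 13.17 in the P8 samples (log2 difference 3.36, SE 0.62, adjusted p = 0.00152). Nr1d2, the repressor REV-ERB beta, had 12.53, 12.35, 12.62 and 10.89 in the P30 samples, against 10.39, 9.59, 9.87 and 10.16 in the P8 samples (log2 difference 2.1, SE 0.31, adjusted p = 0.000211), and Nr1d1, REV-ERB alpha, had 9.33, 8.34, 9.48 and 10.95 in the P30 samples, against 6.92, 6.33, 7.19 and 6.25 in the P8 samples (log2 difference 2.85, SE 0.5, adjusted p = 0.000975). P30 sample 5 was lowest of its age in Dbp and Nr1d2 and highest in Nr1d1. The fourth was Rora, a nuclear receptor that activates clock genes (1.57, adjusted p = 0.0146, ages overlapping). Without sample 5 the differences were 4.04, adjusted p = 7.58e-05 for Dbp, 2.5, adjusted p = 1.92e-06 for Nr1d2 and 2.38, adjusted p = 0.00291 for Nr1d1. The median level of the 7 genes was 8.19 to 9.18 in P30 samples 2, 3 and 4 and 6.41 in sample 5, against 6.33 to 7.04 in the P8 samples. The time of day at which hearts were taken is not stated in the labels used here.

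**Figure D3:**
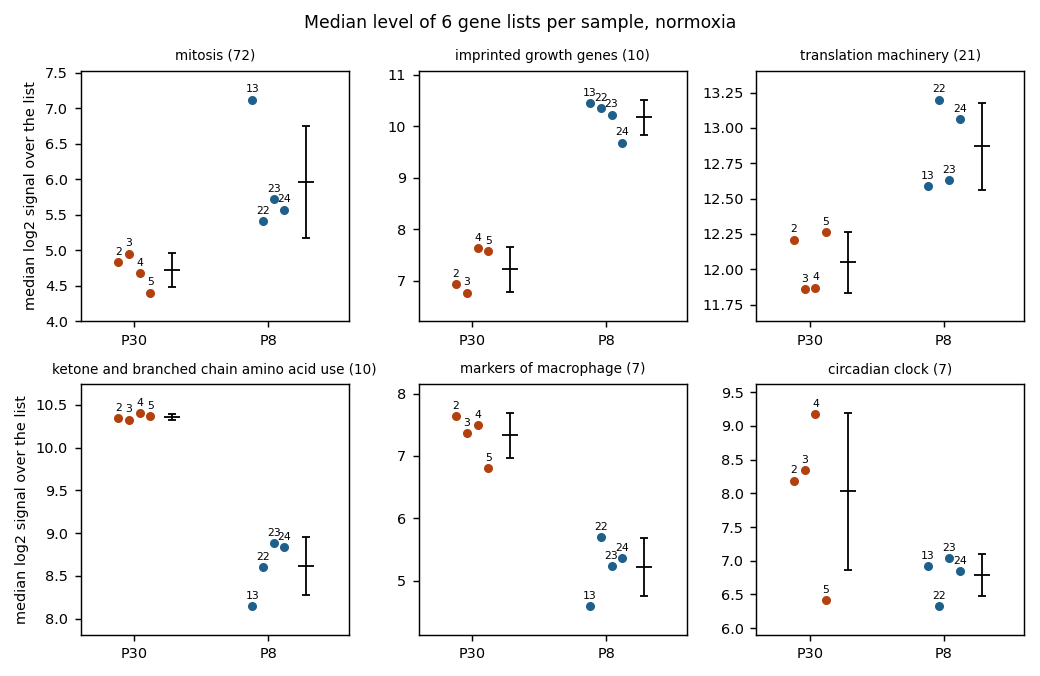
Median log2 signal over 6 gene lists in each normoxic sample, P30 (left) and P8 (right), with sample numbers beside the points and the mean and SD of the 4 samples. Each panel has its own axis, P8 sample 13 is highest in mitosis, and P30 sample 5 is lowest of its age in circadian clock and macrophage genes.

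Markers of macrophages were higher at P30 in 6 of 7 measured genes (85.7%), with a median of 1.89. C1qb and C1qc are chains of the complement starter C1q, which resident macrophages make. C1qc had 7.72, 7.37, 7.85 and 7.04 in the P30 samples, against 5.56, 6.19, 5.24 and 4.8 in the P8 samples (log2 difference 2.05, SE 0.37, adjusted p = 0.00145). C1qb had 7.64, 7.88, 7.58 and 6.81 in the P30 samples, against 3.77, 5.7, 5.24 and 5.61 in the P8 samples (log2 difference 2.4, SE 0.49, adjusted p = 0.00379). Neither overlapped between ages. Lyve1, a hyaluronan receptor of resident macrophages and of lymph vessels, had 8.67, 8.73, 10.37 and 7.05 in the P30 samples, against 5.73, 6.02, 5.99 and 6.65 in the P8 samples (log2 difference 2.61, SE 0.5, adjusted p = 0.00209), or a difference of 3.16, adjusted p = 9.09e-05 without P30 sample 5. Cd68, a lysosomal protein of macrophages, had 6.78, 6.48, 6.17 and 6.05 in the P30 samples, against 4.6, 5.19, 4.88 and 4.92 in the P8 samples (log2 difference 1.47, SE 0.24, adjusted p = 0.000673). The seventh gene, Itgam, differed by 1.23 and did not pass. The median level of the list was 6.81 to 7.64 in the P30 samples and 4.60 to 5.70 in the P8 samples. Ms4a4d, a membrane protein of the CD20 family, had 10.01, 9.4, 8.9 and 9.2 in the P30 samples, against 4.88, 5.2, 4.93 and 5.96 in the P8 samples (log2 difference 4.13, SE 0.64, adjusted p = 0.000347).

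Other cell types were represented by few markers. Flt1, a VEGF receptor of endothelium, had 12.31, 11.33, 11.21 and 11.55 in the P30 samples, against 10.17, 9.94, 9.2 and 9.95 in the P8 samples (log2 difference 1.78, SE 0.31, adjusted p = 0.000863) and Aqp1, a water channel of endothelium and red cells, had 13.5, 13.31, 12.77 and 12.8 in the P30 samples, against 9.92, 11.72, 11.54 and 11.2 in the P8 samples (log2 difference 2.0, SE 0.48, adjusted p = 0.0115), the 2 of 5 endothelial markers that rose. Aplnr (-1.27), Cldn5 (-1.27) and Eng (0.55) did not pass. Of 5 fibroblast markers 3 fell, namely Col1a1, Col3a1 (-1.89, adjusted p = 0.0175) and Dpt (-1.18, adjusted p = 0.0431), while Dcn (-0.04) and Lum (-0.05) did not pass. Only 1 of them fell in the 8 arrays alone, or without any 1 of P8 samples 13, 22 and 23 and P30 samples 2 and 5. These markers include collagens of the matrix list, and the part that the number of fibroblasts has in the fall of matrix genes was not tested. Among 5 red cell markers, Alas2, the haem enzyme of red cells, fell (-3.25, adjusted p = 0.0137), with ages that overlap. Median levels of the red cell markers were 3.39 to 6.47 in the P30 samples and 4.62 to 8.75 in the P8 samples. Cd8a of lymphocytes fell (-1.62, adjusted p = 0.0208), with ages that overlap, and the other lymphocyte marker, Rag2 (-0.79), did not pass. Median levels of the lymphocyte markers were 3.205 to 3.54 in the P30 samples and 4.005 to 5.12 in the P8 samples, mostly at the dim end of the array. Cidea of fat cells fell (log2 difference -1.13, SE 0.29, adjusted p = 0.0191), and Lcn2, 1 of 4 neutrophil markers, rose (1.83, adjusted p = 0.018). The other 3 neutrophil markers had differences below 0 and did not pass, and the median of the 4 was -0.415. Median levels of the 4 were 3.42 to 4.285 in the P30 samples and 3.37 to 4.23 in the P8 samples, at the dim end of the array. The calls of Cd8a, Cidea and Lcn2 were each lost without P30 sample 4 and without at least 2 other single samples. That of Lcn2 was also lost in the 8 arrays alone. The red cell list had no gene called without P30 sample 3 or 4, or in the 8 arrays alone. The heart muscle markers measured, Ttn and Ryr2, did not pass, and no atrial, skeletal muscle or lung marker of the lists was among the named genes.

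Interferon-induced genes showed a spread of differences that the test mostly did not call. Of 36 measured, 1 rose, 34 had a difference above 0 and the median was 1.52. Ly6a, the surface protein Sca-1, had 13.9, 13.62, 12.14 and 13.38 in the P30 samples, against 8.01, 10.19, 9.01 and 10.1 in the P8 samples (log2 difference 3.93, SE 0.72, adjusted p = 0.00146). Tgtp2 and Iigp1, interferon-induced GTPases, differed by 3.53 and 3.08 (adjusted p = 0.296 and 0.624), and Lgals3bp by 1.14 (adjusted p = 0.249). In 15 of the 36 the ages did not overlap (41.7%), against 35.2% of all named genes. The fit pools the spread of all 4 groups, and the median SD of these genes was 0.71 in the P30 normoxic samples, 0.61 in the P8 normoxic samples and 2.43 in the P8 hypoxic samples. With only the 8 normoxic arrays, 12 of 36 rose, against 594 of all 4704 probes in that fit, a base that includes probes without a name. Sample medians were 5.90 to 7.13 in the P30 samples and 4.98 to 6.06 in the P8 samples, with overlap. Ifi211 and Ifi207, members of an interferon-inducible family outside this list, were among the 12 largest rises. Ifi207 had 10.27, 11.26, 11.5 and 7.75 in the P30 samples, against 4.67, 5.73, 6.35 and 7.17 in the P8 samples (log2 difference 4.21, SE 0.79, adjusted p = 0.00191), and without P30 sample 5, the lowest of its age, the difference was 5.03, adjusted p = 0.000151. Ifi211 had 9.05, 9.54, 9.3 and 7.62 in the P30 samples, against 3.64, 5.31, 6.02 and 3.42 in the P8 samples (log2 difference 4.28, SE 1.09, adjusted p = 0.0175), a call that was lost without any 1 of 3 samples (P8 samples 13 and 24 and P30 sample 3). Genes of this family are close copies of each other, so signal may be shared between them.

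The same comparison in the hypoxic hearts, 5 at P30 against 5 at P8, shares no sample with the normoxic one. It called 3304 of the 4704 probes (70.2%), 1237 (26.3%) higher and 2067 (43.9%) lower at P30. Of the 1627 probes called in normoxia, 1094 were called under hypoxia, which is no larger a share than the 70.2% of all probes. Of these, 1082 were called in the same direction, which is 66.5% of the calls in normoxia and 32.7% of those under hypoxia. In the opposite direction 12 were called. Both comparisons use the same estimate of spread for each probe, so their calls are not independent. The difference with age itself differed between normoxia and hypoxia in 243 probes (5.17%), with 204 (4.34%) higher and 39 lower in normoxia, and 231 of the 243 are genes with 1 name. Names come from hypoxia comparisons, which favours such genes, so these counts are not a share of all genes. Without P30 sample 3 there were 139 such probes, and without P8 sample 13 there were 375. After centring the arrays on their medians there were 570, and with array weights 608. Array medians were 7.87 to 8.07 in the P8 hypoxic samples, above those of all other samples.

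Several falls of normal maturation were smaller than those under hypoxia. Tnni1 differed by -8.53 in normoxia and -12.39 under hypoxia (normoxia minus hypoxia 3.86, SE 0.83, adjusted p = 0.0252), Ube2c by -3.76 and -7.91 (4.15, SE 0.53, adjusted p = 0.000396), and Mest by -4.01 and -8.1 (4.09, SE 0.99, adjusted p = 0.0479). Mean levels at P30 were 3.52 in normoxia and 3.33 under hypoxia for Tnni1, 5.13 and 4.17 for Ube2c, and 12.2 and 9.82 for Mest. At P8 they were 12.05 and 15.71 for Tnni1, 8.89 and 12.08 for Ube2c, and 16.26 and 17.93 for Mest. Among genes of fatty acid release, Lpl rose more in normoxia, at 3.52 and 1.45 (2.06, SE 0.44, adjusted p = 0.0237). Lipe rose in normoxia and fell under hypoxia, at 2.08 and -0.92 (2.99, SE 0.41, adjusted p = 0.00105). Mean levels at P30 were 18.4 in normoxia and 17.6 under hypoxia for Lpl, and 8.5 and 7.6 for Lipe. At P8 they were 14.9 and 16.2 for Lpl, and 6.4 and 8.5 for Lipe. Slc2a1 and Bnip3, both HIF targets, differed by 1.35 and 2.78 in normoxia and by -1.42 and -0.41 under hypoxia (2.77, SE 0.33, adjusted p = 0.0003 for Slc2a1 and 3.19, SE 0.43, adjusted p = 0.000869 for Bnip3). Some genes scarcely differed with age in normoxia and were lower at P30 than at P8 under hypoxia. Csrp1, a LIM protein of the cytoskeleton, had 9.65, 8.55, 10.56 and 9.95 in the P30 samples, against 10.09, 9.75, 9.24 and 9.33 in the P8 samples (log2 difference 0.07, SE 0.41, adjusted p = 1), against a difference of -4.83 under hypoxia (4.91, SE 0.55, adjusted p = 0.00022). Rasl11b, a small GTPase, had 7.22, 6.59, 7.3 and 6.44 in the P30 samples, against 7.41, 6.48, 7.2 and 6.66 in the P8 samples (log2 difference -0.05, SE 0.26, adjusted p = 1), against -3.25 (3.2, SE 0.35, adjusted p = 0.00022). Acot1, an acyl-CoA thioesterase, differed by -0.34 in normoxia and -3.68 under hypoxia (3.34, SE 0.39, adjusted p = 0.000269). Csrp1, Rasl11b and Acot1 had their highest group means in the P8 hypoxic samples, at 13.33, 9.76 and 8.77. The P30 hypoxic means were 8.50, 6.50 and 5.08 in the same order. In normoxia the means were 9.68, 6.89 and 5.96 at P30, and 9.60, 6.94 and 6.3 at P8. In the other direction Aqp1 differed by 2.0 and 5.68 (-3.68, SE 0.64, adjusted p = 0.00714) and Hrc by 1.5 and 3.38 (-1.88, SE 0.41, adjusted p = 0.0277). Impa2, an inositol monophosphatase, had 6.89 to 7.68 in the P30 samples and 7.76 to 8.73 in the P8 samples, a difference of -0.93 against -3.45 under hypoxia (2.52, SE 0.3, adjusted p = 0.0003). Its call in normoxia was lost in the 8 arrays alone and without P8 sample 13 or P30 sample 3 or 4. Rnf31, a ubiquitin ligase subunit, had 5.66 to 6.05 in the P30 samples and 4.56 to 5.28 in the P8 samples, a difference of 1.06 against -1.43 (2.5, SE 0.32, adjusted p = 0.000396).

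**Figure D4:**
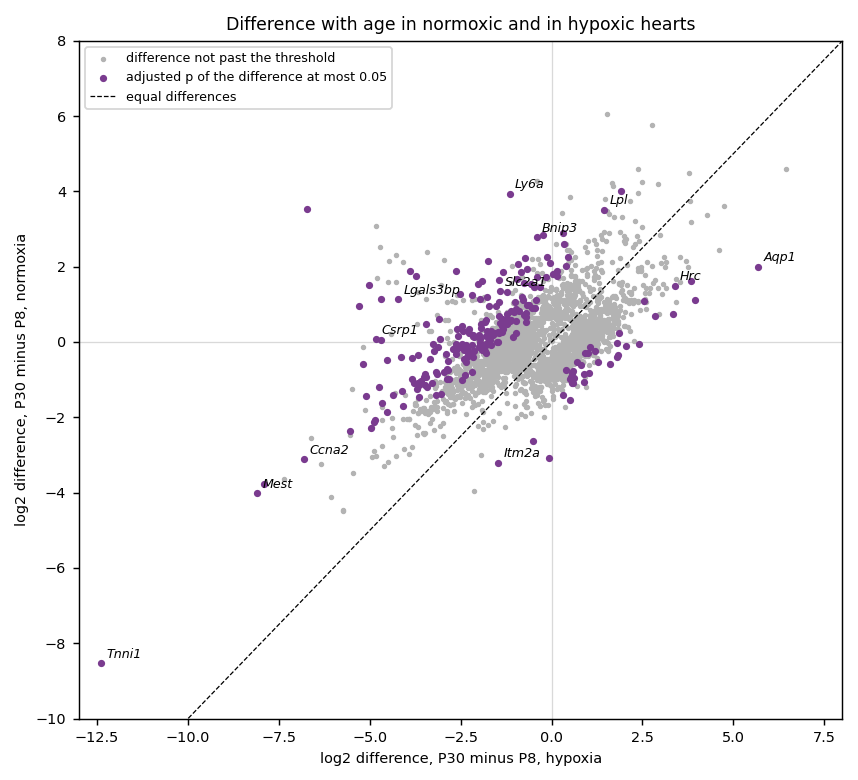
Log2 difference, P30 minus P8, in normoxia (vertical axis) against hypoxia (horizontal axis) for the 2568 probes with 1 gene name. Purple points are those whose 2 differences differ at an adjusted p of up to 0.05, the dashed line marks equal differences, and Tnni1 lies farthest from the origin.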

How the data were processed

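Per the labels' protocols, total heart RNA was extracted on columns meant for fibrous tissue and was biotin-labelled, and arrays were run only on samples of sufficient RNA integrity. The authors deposited log2 signals per probe. Affymetrix Expression Console is listed, with no version, per the submitters' processing notes, and for the normalization used the sources here say nothing. Array counts of 4 per group limit the precision. The authors' deposited gene lists (hypoxia against normoxia) gave names and, through their p-values and q-values, the number of probes on the array, 22206. Of the 4704 probes, 2568 have 1 symbol, 105 several and 2031 none here. Where a gene had several probes, the brightest on average was used, and 89 symbols were updated through RefSeq (GRCm38.p6).

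Differences were tested with limma 3.58.1 in R 4.3.3 (lmFit, contrasts.fit, eBayes) over all 18 arrays in 4 groups without a block, so that 4 groups share 1 estimate of spread (14 residual and 5.98 prior degrees of freedom). Because the table is a selection, Benjamini-Hochberg adjustment used 22206 tests, and the threshold was 0.05. The fit was tested on simulated data. Named genes are the 12 largest rises and falls, the 4 called members of each list with the largest statistic, the 8 largest statistics of the difference between normoxia and hypoxia, and check genes. Genes of the first 2 kinds had to be called with no overlap between ages. Called members outside this rule complete a count and were chosen after their values were seen. Some genes that the lists count are not reported here. The part of the series, the 40 gene lists and the tests were chosen with earlier results of these data known. Alternatives were other adjustment, scaling, filter, prior and weights, the 8 normoxic arrays alone, and each normoxic sample left out.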

Additional observations from a re-analysis of the deposited data

Results flagged for a closer look

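Among 266 groups of 4 samples checked (each named gene, and the median of each list with at least 3 measured genes, at each age), 19 had a single sample far from the other 3, and chance flags about 1 in 20 groups. P30 sample 5 stood apart in Mt2 (7.78, against 14.14 to 14.78 in the other 3), Rrm2 (5.14, against 6.17 to 6.31 in the other 3) and Mt1 (17.16, against 19.27 to 19.40 in the other 3). So it did in Nr1d2 (10.89, against 12.35 to 12.62 in the other 3), Gpam (13.56, against 14.56 to 14.64 in the other 3) and the median of the list calcium handling and T-tubules (13.57, against 12.36 to 12.53). P8 sample 22 stood apart in Ogdhl (5.30, against 4.64 to 4.75 in the other 3) and Igf2bp3 (5.85, against 6.63 to 6.79 in the other 3). P8 sample 23 stood apart in Esrrg (7.22, against 6.79 to 6.83 in the other 3) and Rnf31 (5.28, against 4.56 to 4.66 in the other 3). P30 sample 4 stood apart in Lipe (9.04, against 8.24 to 8.31 in the other 3) and Pfkl (9.84, against 10.59 to 10.72 in the other 3). So it did in Ckmt2 (16.81, against 17.70 to 17.84 in the other 3), the median of the list sarcomere and its isoforms (13.81, against 13.29 to 13.33) and the median of the list adrenergic, muscarinic and cyclic nucleotide signalling (7.94, against 8.72 to 8.85). P8 sample 13 stood apart in Htra3 (9.43, against 10.77 to 10.79 in the other 3), Htra1 (11.92, against 12.22 to 12.24 in the other 3) and the median of the list ion channels and connexins (6.04, against 7.12 to 7.29). P30 sample 3 had 3.90 for Uchl1, against 3.02 to 3.17 in the other 3, all at the dim end of the array.

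In 28 of the 103 genes named by the rules given above, the age difference in normoxia differed from that under hypoxia at an adjusted p of up to 0.05 in limma. Among all 2562 genes with 1 name, 231 passed this test. The 8 genes with the largest statistics of this same difference were named by that rule, so their passing follows from the choice. The 28 are thus not a share to set against that of all genes. Values are normoxia minus hypoxia on the log2 scale, so that a positive one means that P30 relative to P8 was higher in normoxia. Genes of cell division gave Ube2c 4.15, Ccna2 3.70, Cdca3 2.75 and Rrm2 3.18. Genes of the contractile apparatus, cytoskeleton and growth gave Tnni1 3.86, Mest 4.09, Rasl11b 3.20 and Csrp1 4.91. Lipid enzymes gave Lpl 2.06, Lipe 2.99, Pnpla2 1.78 and Acot1 3.34. HIF targets and glycolysis genes gave Slc2a1 2.77, Pfkl 2.07 and Bnip3 3.19. Immune genes gave Ly6a 5.08, Cd68 1.96, Lgals3bp 5.36 and Rnf31 2.50. The other positive values were Aox1 2.11, Nr1d1 3.08, Psat1 2.65 and Impa2 2.52. Negative values were found for Itm2a -1.73, Htra1 -1.68, Hrc -1.88, Sema3c -1.72 and Aqp1 -3.68. Named genes were picked by hypoxia comparisons, which favours such differences, and without P30 sample 3 it was 139 probes that passed, in place of 243.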

How the results depend on the processing

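No paired analysis was possible because the P30 and P8 normoxic samples share no replicate number. Adjusted over the value table alone, which is too lenient for a selected table, 2669 probes were called (1289 higher, 1380 lower) and 1191 for the difference from hypoxia. With only the 8 normoxic arrays, which leaves fewer samples to estimate the spread, 1053 were called, 459 of them lower and 594 higher, and 1003 of these are among the 1627. Counts over samples left out in turn ran from 1079 to 1386 called, 588 to 756 higher and 491 to 645 lower. For the difference from hypoxia they ran from 139 to 375, with 570 after centring arrays on their medians and 608 with array weights; the cause was not tested. The share of higher calls was 47.2% to 57.1% over all settings, against 52.8% as reported. Of the 98 named genes called, 84 kept the call under every alternative run and 14 lost it under at least 1. Csrp1 changed sign with quantile normalization (-0.00472) and with array weights (-0.14), and over samples left out Csrp1 ran from -0.22 to 0.45 and Rasl11b from -0.20 to 0.11, all without a call. Array scaling moved the median of the table by at most 0.0525. Medians of the mitosis, imprinted, translation, DNA replication and matrix lists stayed below 0, and those of the ketone and branched chain amino acid, detoxification, macrophage, clock, ion channel and fatty acid lists above 0, under every alternative run. Signals under 5 are at the dim end of the array, and no detection measure was used.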

Other observations

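Probes with no gene name here, or with several, passed the threshold for age in a larger share than named genes: 911 of 2136 (42.6%) passed, 504 higher and 407 lower, against 714 of 2562 named genes (27.9%). Names come from hypoxia comparisons, which the 105 probes with several names passed too and the 2031 with none need not have, and the difference in share was not tested.

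Of the genes named by the P30 hypoxia list only, 134 of 344 (39%) passed for age in normoxia, 81 higher and 53 lower. Of those named by the P8 list only, 491 of 1961 (25%) passed, 220 higher and 271 lower. Both kinds of list share the normoxic samples with the age comparison.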
